A study of Mus musculus with 2 samples.

Results

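Wnt ligands are secreted, lipid-modified glycoproteins that carry signals between neighbouring cells, and R-spondins are secreted proteins that make cells more responsive to them. The 10 genes described here are the ligand genes Wnt2, Wnt2b, Wnt3a, Wnt9a, Wnt4, Wnt5a, Wnt5b and Wnt11 and the R-spondin genes Rspo1 and Rspo3, of 19938 genes measured on the arrays. They were taken by name, each through probe sets that the platform annotation assigns to 1 gene symbol, and all 10 were found. Of these, 9 reached the level filter described below on at least 1 array, which no other gene of the family did. The genes were proposed with earlier results of these data known.

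Dermal cells were isolated from the dorsal skin of C57BL/6 mice at postnatal day 0, grown for 24 h in medium with serum, and transfected for 48 h with siRNAs against β-catenin (1 array) or with control siRNA (1 array), each at 10 nM. An siRNA is a small double-stranded RNA that makes the cell cut messenger RNAs of matching sequence, and β-catenin, encoded by Ctnnb1, is the protein that carries the canonical Wnt signal into the nucleus. All cells of both groups were cultured and transfected, and untransfected cells were not analysed here. Total RNA, 300 ng per array, was hybridised to an Affymetrix whole-transcript array, and the deposited values are on the log2 scale. The labels do not say how many pups or cultures stand behind an array, or how many siRNA sequences were pooled.

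In the canonical branch of the pathway, a Wnt protein binds a Frizzled receptor with Lrp5 or Lrp6, β-catenin escapes degradation, and genes bound by TCF/LEF factors are transcribed. In the non-canonical branches, Wnt proteins act through Frizzled with Ror1, Ror2, Ryk or Ptk7 on the cytoskeleton, cell polarity or calcium, without β-catenin. In skin, dermal cells both receive epidermal Wnt proteins and make ligands of their own, and dermal Wnt signalling is needed for hair follicle formation. Wnt2, Wnt2b, Wnt3a and Wnt9a are grouped here as canonical and Wnt4, Wnt5a, Wnt5b and Wnt11 as non-canonical. This is a textbook shorthand, since the branch taken also depends on the receptors, and Wnt4 acts in both.

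There was no replicate array, so each difference is a subtraction of 2 log2 values, β-catenin siRNA minus control siRNA, with no error, test or p-value. Whether any of them exceeds the spread between cultures was not tested. To give a sense of scale, a robust SD of the difference (a scaled median absolute deviation) was taken over the 1000 genes nearest in mean level to each member. Values of different genes come from different probe sets and are not ranked against each other. In bulk RNA, fewer cells of a type and less RNA per cell cannot be told apart. The siRNA target itself was lower: Ctnnb1 had a log2 value of 9.34 after β-catenin siRNA and 10.48 after control siRNA, a difference of -1.14. A log2 value of 5.13, the median of all gene means, served as a level filter. All 10 fibroblast markers examined lay above it on both arrays, and 3 of them were at least 1.5-fold higher and none that much lower after β-catenin siRNA. Their summed level was 14.85 after β-catenin siRNA and 14.76 after control siRNA on the log2 scale. Markers of keratinocytes, which make Wnt ligands of their own in the epidermis, were under it for 6 of 14 genes on each array. The summed keratinocyte level was 10.51 after β-catenin siRNA and 10.05 after control siRNA, with 10 of 14 higher, 4 of them by at least 1.5-fold, and 1 at least 1.5-fold lower. Of 8 pericyte and smooth muscle markers, 4 were under the filter on each array. Their summed level was 13.09 after β-catenin siRNA and 13.20 after control siRNA, with 3 lower and 4 higher. Most of that sum was Acta2 alone, at 12.86 after β-catenin siRNA and 12.98 after control siRNA, so it does not describe the 8 markers together. Of the 8, 1, Myh11, was at least 1.5-fold lower (-0.68) and none that much higher. Most markers of endothelial, macrophage and melanocyte identity were under the filter on both arrays, as were all of those measured for adipocytes, Schwann cells and skeletal muscle. The part of other cell types in the differences below was not tested.

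Of the 10 genes, 7 had a lower value after β-catenin siRNA and 3 a higher one, where 10466 of all 19938 genes were lower and 8304 higher. A change of at least 1.5-fold was used as the size that counts, and 2 members, Wnt2b and Wnt9a, were that much lower, where 2.35% of all genes were. Another 2, Rspo3 and Wnt2, were that much higher, where 2.23% of all genes were. Among the 10197 genes that reached the level filter on at least 1 array, the shares were 1.84% lower and 2.76% higher. Of the 9 members in that set, Wnt2 and Wnt3a entered it only through the array where they were higher, so counts among these 9 are not read against those shares. On both arrays 7 members passed the filter, with 2 at least 1.5-fold lower and 1 higher. The share of all genes was not counted under that filter, so these counts are not read against one. No member reached 2-fold. The median difference was -0.21 over the members and -0.02 over all genes.

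**Figure D1:**
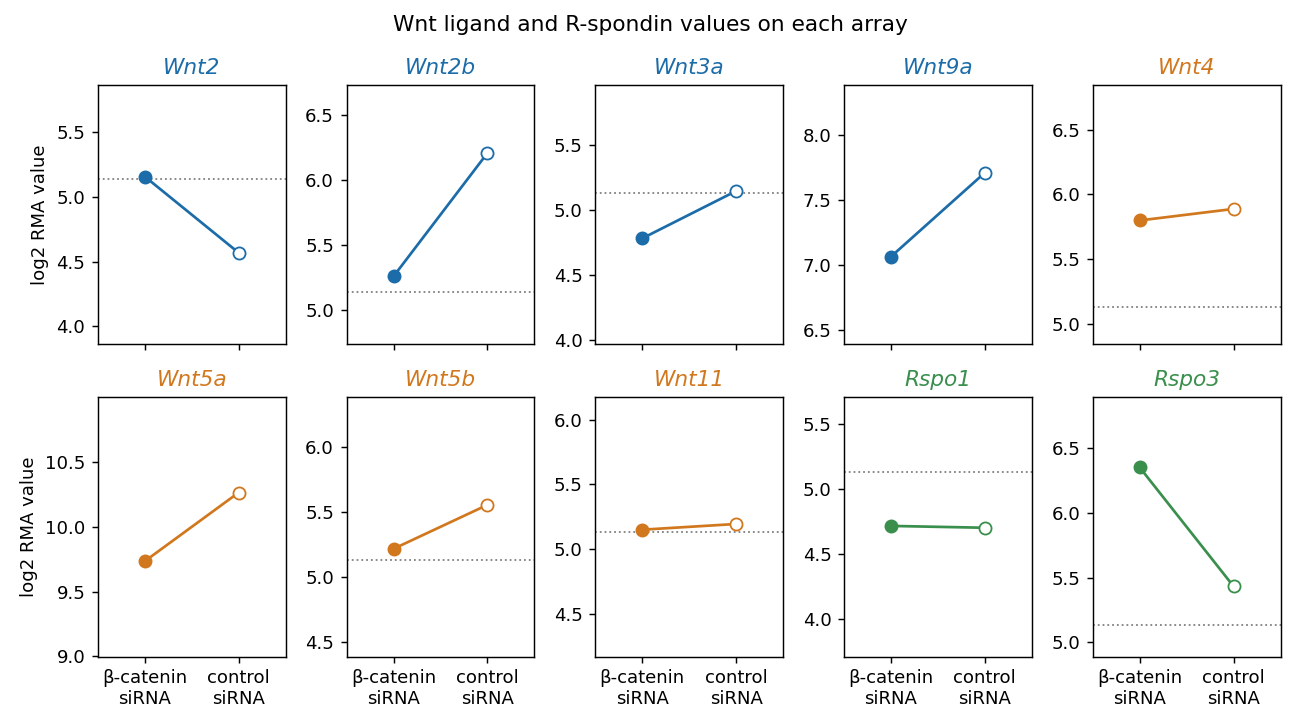
Log2 RMA values of each member on the β-catenin siRNA array (filled circles) and the control siRNA array (open circles), with canonical ligands in blue, non-canonical ligands in orange and R-spondins in green. Each panel has its own vertical axis, and the dotted line marks the level filter of 5.13 where it falls in range. Wnt2b and Wnt9a slope up towards control, whereas Rspo3 and Wnt2 slope down.

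The canonical ligands held the most negative member difference and also a positive one. Wnt2b, a ligand known from eye, limb and lung development, had a log2 value of 5.26 after β-catenin siRNA and 6.21 after control siRNA. This difference of -0.95, or 1.93-fold lower, left 51.7% of the control signal. A more negative difference was found in 78 of the 19938 genes, and it was 3.73 times the robust SD of genes at its level. Wnt9a, which acts in joint formation in the mouse, had 7.06 after β-catenin siRNA and 7.71 after control siRNA, a difference of -0.65 or 1.57-fold lower. Its difference was 2.93 times the robust SD at its level. Both genes stayed above the level filter on both arrays.

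Wnt3a, the ligand most often used to switch on β-catenin in culture, had a log2 value of 4.78 after β-catenin siRNA and 5.15 after control siRNA. The difference of -0.37 did not reach 1.5-fold, and the β-catenin siRNA value was under the level filter. Wnt2, the closest relative of Wnt2b and its partner in lung specification in the mouse, differed in the other direction. It had 5.16 after β-catenin siRNA and 4.57 after control siRNA. This difference of 0.59, or 150.2% of the control signal, lay just past the size counted, with the control value under the filter. It was 2.34 times the robust SD at its level. The 4 canonical ligands thus had a median of -0.51, with 3 lower and 1 higher.

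**Figure D2:**
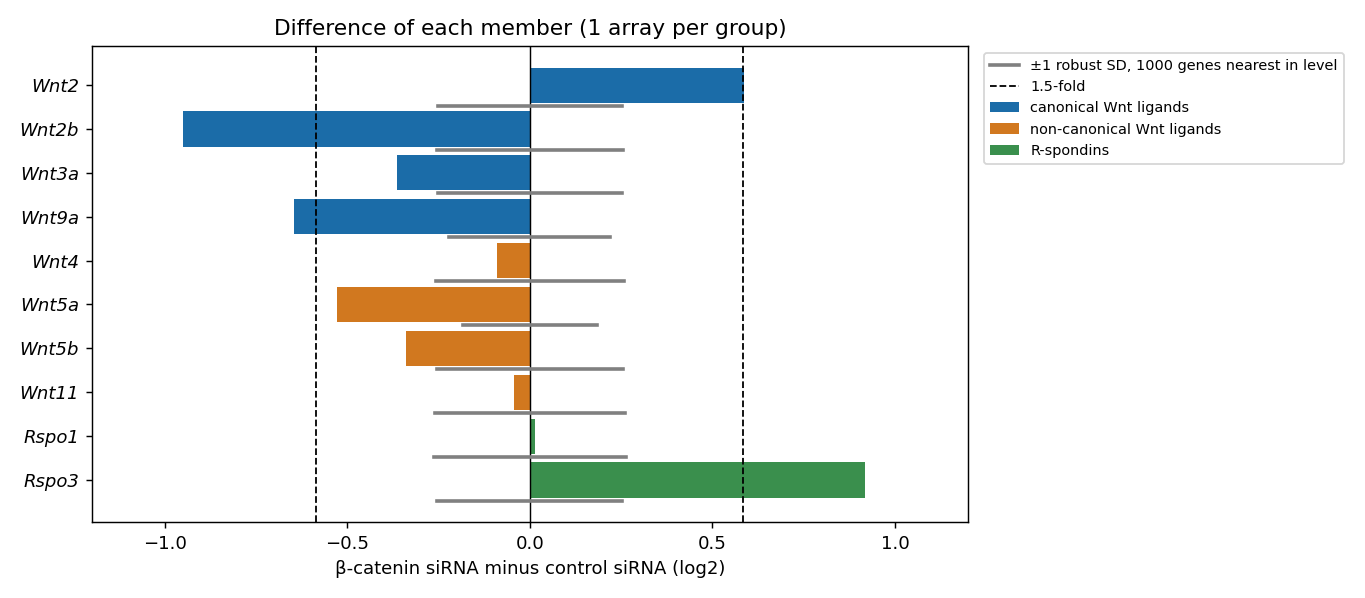
Difference of each member in log2 units, β-catenin siRNA minus control siRNA, as bars, with 1 array per group and so no error bars. Dashed lines mark 1.5-fold, and the grey line under each bar spans 1 robust SD either side of 0 for the 1000 genes nearest in level. Wnt2b, Wnt9a, Rspo3 and Wnt2 pass a dashed line.

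The starts of 3 of these genes are shown because Wnt2b and Wnt2 are close relatives with opposite differences and Wnt9a is the other canonical ligand past 1.5-fold. Each window runs from 250 bases before to 50 bases after the annotated start, 5′ to 3′ on the strand of the gene, from RefSeq on build GRCm38.p6. The windows are chr3:104961660-104961959 (minus strand) for Wnt2b, chr6:18030396-18030695 (minus strand) for Wnt2 and chr11:59306680-59306979 (plus strand) for Wnt9a.
Wnt2b: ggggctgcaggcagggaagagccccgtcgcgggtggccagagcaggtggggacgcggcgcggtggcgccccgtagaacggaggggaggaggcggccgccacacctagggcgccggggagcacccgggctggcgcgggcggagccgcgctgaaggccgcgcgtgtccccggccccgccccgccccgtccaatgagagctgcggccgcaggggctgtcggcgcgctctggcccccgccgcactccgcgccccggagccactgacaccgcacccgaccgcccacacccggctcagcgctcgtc
Wnt2: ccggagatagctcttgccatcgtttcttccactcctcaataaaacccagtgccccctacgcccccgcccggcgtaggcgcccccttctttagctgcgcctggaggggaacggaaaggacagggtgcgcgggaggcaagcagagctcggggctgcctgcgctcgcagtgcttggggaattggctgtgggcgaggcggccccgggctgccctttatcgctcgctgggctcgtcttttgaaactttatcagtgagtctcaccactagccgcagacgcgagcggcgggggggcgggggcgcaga
Wnt9a: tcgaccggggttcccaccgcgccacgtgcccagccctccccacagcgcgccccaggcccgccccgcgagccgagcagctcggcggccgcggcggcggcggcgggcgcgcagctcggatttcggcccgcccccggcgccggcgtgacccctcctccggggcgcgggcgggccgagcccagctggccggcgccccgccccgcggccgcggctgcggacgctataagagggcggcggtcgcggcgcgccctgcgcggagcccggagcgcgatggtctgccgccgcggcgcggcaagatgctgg

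Each window was searched on both strands for CTTTGAA, for CTTTGAT, for CTTTGTA and for CTTTGTT, the core of the element that TCF/LEF factors bind. The 4 words differ only in their last letters, so at most 1 can match at a given place and strand, and any of them was present in 16.9% of the 32851 windows in the RefSeq table. None was in the Wnt2b, Wnt2 or Wnt9a window, nor in those of Wnt3a, Wnt4 and Rspo1. G and C made up 79.7% of the Wnt2b window, 83.3% of the Wnt9a window and 65.7% of the Wnt2 window, against a median of 52.7% over all windows. These counts describe the printed letters alone, since distal elements were not examined.

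The genes beside the canonical ligands on their chromosomes were described as well. Wnt2 and Wnt2b each lie beside a related gene, St7 and St7l, by the order of protein-coding genes in RefSeq, looked up after the values of the Wnt genes were known. St7 had a log2 value of 6.39 after β-catenin siRNA and 6.36 after control siRNA, a difference of 0.03. St7l had 5.95 after β-catenin siRNA and 5.96 after control siRNA, a difference of -0.02. On the other side, Asz1 beside Wnt2 differed by -0.20, on values under the filter, and Cttnbp2nl beside Wnt2b by -0.11. None of these 4 neighbours reached 1.5-fold, a size at which 2.35% of all genes were lower and 2.23% higher. On chromosome 11, Wnt3a and Wnt9a are next to each other and are transcribed away from each other. Both were lower, by -0.37 and -0.65, while the genes on their far sides, Arf1 (-0.01) and Prss38 (0.15, on values under the filter), differed little. Neighbours of the other members included genes past 1.5-fold. These were Cacna2d3 beside Wnt5a (-0.63, on values under the filter) and 9930104L06Rik beside Rspo1 (-0.65).

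The non-canonical ligands were all lower, each by less than 1.5-fold. Wnt5a, the main ligand of Ror2 and a driver of limb and body-axis outgrowth in the mouse, had a log2 value of 9.73 after β-catenin siRNA and 10.26 after control siRNA. The difference of -0.53 left 69.3% of the control signal. Although smaller as a fold than that of Wnt9a, it was 2.88 times the robust SD at its level, which was 0.18 there against 0.22 at the level of Wnt9a. Genes at the level of Wnt5a varied less between the arrays, so a fixed fold size is a stricter demand there. Wnt5b, the nearest relative of Wnt5a and a regulator of cartilage cells, had 5.22 after β-catenin siRNA and 5.56 after control siRNA, a difference of -0.34 or 1.33 times the robust SD at its level.

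Wnt4 and Wnt11 showed the smallest differences among the ligands. Wnt11, which acts in kidney branching in the mouse and in cell movements of the zebrafish gastrula, had log2 values of 5.15 after β-catenin siRNA and 5.195 after control siRNA, a difference of -0.04. Wnt4, known from kidney and female reproductive tract development, was the only member with more than 1 probe set. Its brighter probe set had 5.80 after β-catenin siRNA and 5.89 after control siRNA, a difference of -0.09. The other had 5.51 after β-catenin siRNA and 5.92 after control siRNA, a difference of -0.41. The probe sets share a direction and differ in size, by more than 0.16, the SD among probe sets within a gene, pooled over 594 genes. The other 9 members rest on 1 probe set each, so such a check was not possible for them.

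The median of the 4 non-canonical ligands was -0.21, against -0.51 for the canonical ones, so the canonical median was lower by a difference of -0.29. That gap depended on Wnt4 and on the level filter. With Wnt4 moved to the canonical ligands, the medians were -0.37 for canonical and -0.34 for non-canonical ligands, a gap of -0.03. With Wnt4 left out, the gap was -0.17, and with its other probe set it was -0.13. With the filter required on both arrays, which left Wnt2b and Wnt9a as the canonical ligands, it was -0.58. The classes also overlapped gene by gene, since Wnt5a was lower by more than Wnt3a and Wnt2 was higher. With 4 genes in each class and no replicate array, these values do not separate canonical from non-canonical ligands. Over all 8 ligands, 7 were lower, with a median of -0.35, where 10466 of all 19938 genes were lower.

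Among the promoter windows of the members, a TCF/LEF core was found in 1 of the 2 windows of Wnt11 and in 1 of the 3 windows of Wnt5b, and these are shown for that reason. Capitals mark CTTTGAT, a word present in 3.73% of all windows. It begins at base 180 of the Wnt5b window at chr6:119449337-119449636 (minus strand). In the Wnt11 window at chr7:98834862-98835161 (plus strand) it lies on the opposite strand, so that the printed letters at base 200 and onwards are its reverse complement. In all, 2 of the 11 windows of 8 members held any of the 4 core words, a share near the 16.9% of all windows. Wnt5a and Rspo3 were not matched to a window.
Wnt5b: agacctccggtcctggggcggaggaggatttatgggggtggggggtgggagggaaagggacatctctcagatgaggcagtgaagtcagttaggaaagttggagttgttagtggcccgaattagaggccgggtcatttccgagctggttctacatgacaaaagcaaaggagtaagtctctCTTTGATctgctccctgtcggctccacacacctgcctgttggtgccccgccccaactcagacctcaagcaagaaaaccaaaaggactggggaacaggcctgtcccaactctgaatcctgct
Wnt11: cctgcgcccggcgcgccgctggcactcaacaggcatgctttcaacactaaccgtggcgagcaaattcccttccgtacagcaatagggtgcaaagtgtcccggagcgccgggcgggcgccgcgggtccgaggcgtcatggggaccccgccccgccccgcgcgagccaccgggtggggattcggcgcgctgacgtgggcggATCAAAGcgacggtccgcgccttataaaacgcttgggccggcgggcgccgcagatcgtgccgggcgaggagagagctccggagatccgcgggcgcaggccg

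**Figure D3:**
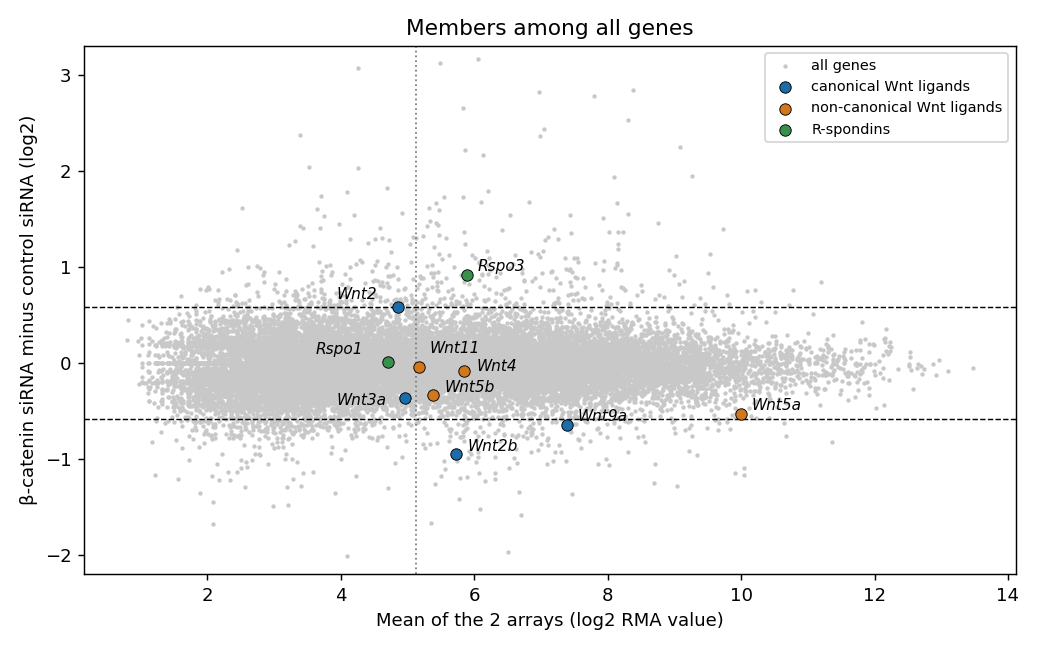
Difference (log2, β-catenin siRNA minus control siRNA) against the mean of both arrays (log2 RMA value) for all 19938 genes in grey and the 10 members in colour. Dashed lines mark 1.5-fold and the dotted line the level filter of 5.13. Wnt5a, at the bright end, lies at the lower edge of genes of its level, and Rspo3 and Wnt2b lie above and below most genes of theirs.

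Of the R-spondins, Rspo3 was higher, opposite to 7 of the 8 ligands, and Rspo1 hardly differed. R-spondins bind Lgr4, Lgr5 or Lgr6 and draw the ubiquitin ligases Znrf3 and Rnf43 away from Frizzled, which leaves more receptor at the surface. Rspo3, known from vascular development and from the stromal niche of intestinal stem cells in the mouse, had a log2 value of 6.35 after β-catenin siRNA and 5.43 after control siRNA. This difference of 0.92, or 1.89-fold higher, was 3.62 times the robust SD at its level, and 158 genes had a larger positive one. Rspo1, which acts in ovary determination, had 4.71 after β-catenin siRNA and 4.70 after control siRNA, a difference of 0.01. It was the only member under the level filter on both arrays. The median of these 2 genes, 0.47, therefore describes neither.

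The rest of the family was dim. All 13 remaining Wnt and R-spondin genes were measured and all lay under the level filter on both arrays, with 5 lower and 8 higher and a median of 0.04. The only one past 1.5-fold was Rspo2, an R-spondin of limb development whose variants alter coat type in dogs. It had 4.49 after β-catenin siRNA and 3.69 after control siRNA, a difference of 0.79. Rspo4, known from nail development in humans, differed by 0.07. Of the 4 R-spondin genes, Rspo3 and Rspo2 were at least 1.5-fold higher, Rspo2 on a dim signal throughout. Of all genes, 2.23% were that much higher, and 4 genes are too few to read as a family pattern. The other 11 genes were Wnt genes, with differences between -0.41 (Wnt3, an inducer of the body axis) and 0.45 (Wnt8b, a ligand of the developing forebrain).

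Genes of the receiving side of R-spondins also went both ways. Lgr4 had a log2 value of 7.86 after β-catenin siRNA and 7.02 after control siRNA, a difference of 0.84. Lgr5, itself a Wnt target in several tissues, had 8.51 after β-catenin siRNA and 8.87 after control siRNA, a difference of -0.37. Lgr6 had 4.86 after β-catenin siRNA and 5.30 after control siRNA, a difference of -0.44. The ligases Znrf3 and Rnf43 differed by -0.35 and -0.19, the second on values under the filter. Lgr4 was thus the only one of the 5 past 1.5-fold and the only one higher.

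Of 16 Wnt receptor genes, 1 was at least 1.5-fold higher and none that much lower, with a median of -0.09. Fzd4, also the receptor of the eye factor norrin, had a log2 value of 5.23 after β-catenin siRNA and 4.20 after control siRNA, a difference of 1.03 from a control value under the filter. The co-receptors of the non-canonical branches were picked for description with their values already known. Ror1 (-0.55), Ror2 (-0.50), Ptk7 (-0.47) and Ryk (-0.16) were all lower, as was their ligand Wnt5a, each by less than 1.5-fold. The canonical co-receptors Lrp5 (0.28) and Lrp6 (0.35), chosen likewise, were higher by less than 1.5-fold. The 10 Frizzled genes went both ways, 5 lower and 4 higher, with differences between -0.58 and 1.03. The picked co-receptors thus do not stand for the whole receptor list, and a split between the branches was not tested.

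The genes listed for secretion, release and surface modification of Wnt proteins had no common direction. Of 17 genes, 8 were lower and 9 higher, with a median of 0.04. Porcn, the enzyme that attaches the lipid to every Wnt protein, differed by -0.45, and Wls, the carrier that takes Wnt proteins to the surface, by -0.23. Both were named after their values were seen. Among genes above the filter, those past 1.5-fold were 2 glypicans, heparan sulfate proteoglycans that hold Wnt proteins at the surface. Gpc3 had 8.90 after β-catenin siRNA and 8.09 after control siRNA, a difference of 0.81. Gpc1 differed the other way, by -0.61. Notum, an enzyme that removes the lipid from Wnt proteins and is also in the target list, differed by -0.66 on values of 4.45 after β-catenin siRNA and 5.12 after control siRNA, both under the filter.

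Beside these, 13 of 15 measured Wnt/β-catenin target genes were lower and 2 higher, with a median of -0.37. Of them, 6 were at least 1.5-fold lower and none that much higher, and 2 of the 6, Notum and Dkk1, were under the filter on both arrays. Among the 10 targets that reached the filter, 4 were at least 1.5-fold lower. Nkd1 and Nkd2, feedback inhibitors of the pathway, differed by -0.93 each, Axin2 by -0.75 and Apcdd1 by -0.73. Wnt2b and Wnt9a, at -0.95 and -0.65, and these 4 targets were all named for being at least 1.5-fold lower, so their sizes are not compared. Lgr5, Znrf3 and Rnf43 are counted both among the targets and among the R-spondin receptors and ligases. Lists and targets were chosen with earlier results of these data known, so their counts are no independent evidence of a direction.

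**Figure D4:**
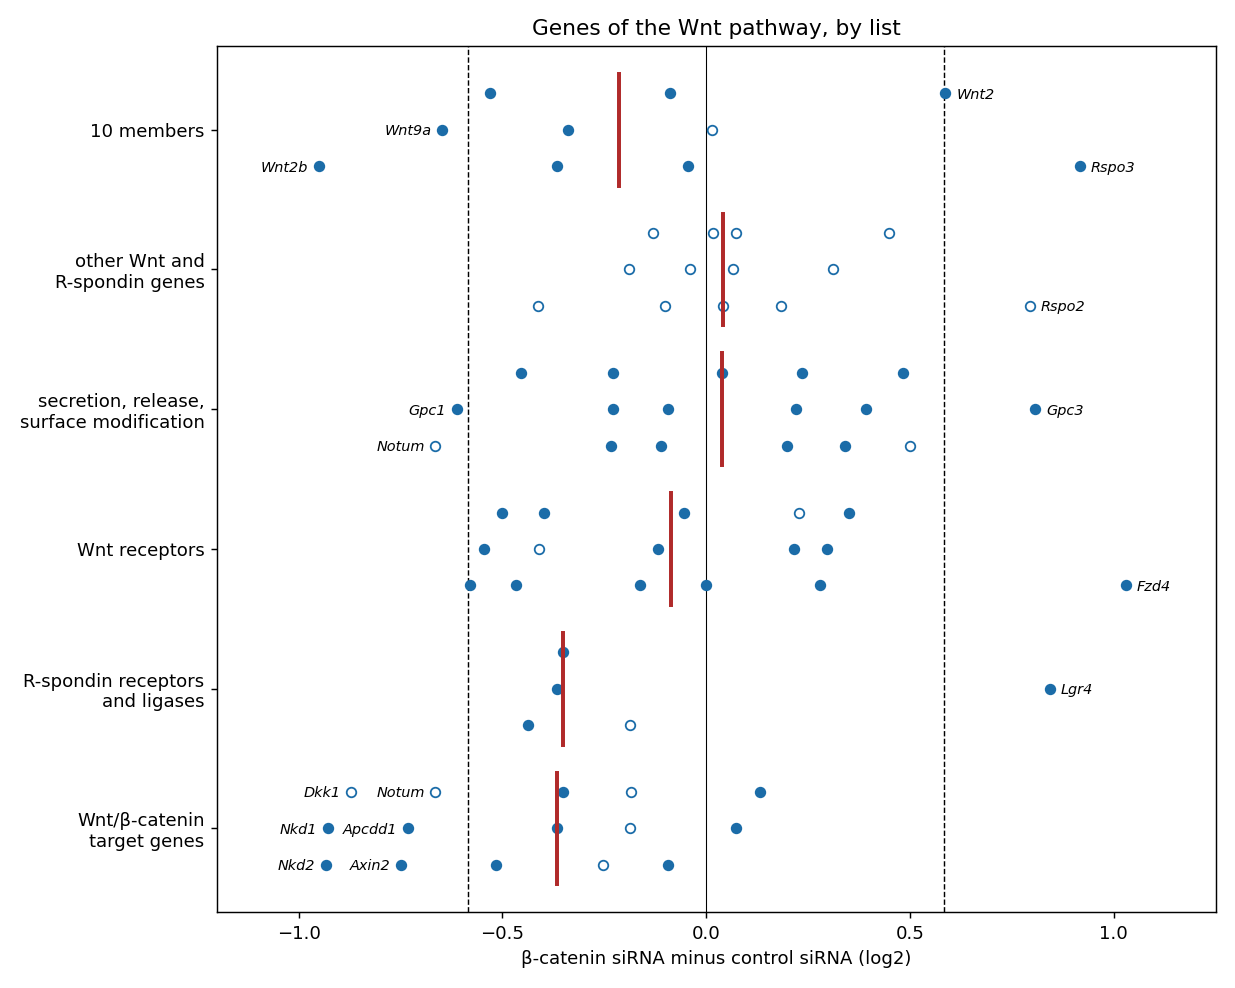
Difference of each gene (log2, β-catenin siRNA minus control siRNA) in the 10 members and 5 lists of Wnt pathway genes, with genes past 1.5-fold (dashed lines) named. Filled circles reached the level filter on at least 1 array, open circles did not, and red bars are list medians. The target genes lie mostly left of 0 (median -0.37). The R-spondin receptors and ligases do too (median -0.35, 4 of 5 lower), and they share Lgr5, Znrf3 and Rnf43 with the targets. The remaining groups spread to both sides.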

How the data were processed

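Gene expression was measured in 1 array of dermal cells after β-catenin siRNA and 1 after control siRNA. The deposited values are log2 expression values per probe set made with robust multi-array average (RMA), which subtracts background, equalises the arrays and summarises probes, per the submitters' processing notes. The log2 scale was judged from the range of the values. The sources used here give no software, version or genome build. RMA removes an overall difference between arrays, so differences are relative to other genes, and it shrinks those of dim probe sets. Detection calls were not used here.

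Of 28944 probe sets, 21789 had 1 gene symbol, 1621 several and 5534 none. Symbols were updated through gene identifiers in a RefSeq table of GRCm38.p6 for 21698 of them. Each of the 19938 genes was represented by its brightest probe set (mean of both arrays). No probe set with several symbols named a member. The members, the gene lists, the size of 1.5-fold, the level filter and the alternatives were chosen with earlier results of these data known. The rule for naming genes took all members, Ctnnb1, all R-spondin receptors and ligases, other family genes past 1.5-fold, and up to 4 genes past 1.5-fold and above the filter in each other list. Outside that rule, Rspo4, Wnt3, Wnt8b, Notum, Dkk1, Ror1, Ror2, Ptk7, Ryk, Lrp5, Lrp6, Porcn, Wls, Fzd3, Krt10, Krt14, Acta2, Col1a1, Thy1 and the chromosomal neighbours were named with their values known. With 2 arrays, no measure of likeness between gene patterns exists. Alternatives were median centring, lowess centring (span 0.3), the mean of probe sets, level filters on 1 or both arrays, a 2-fold size and the class of Wnt4. The script was tested on simulated data. Python 3.11.15, numpy 2.4.6, pandas 2.3.3, statsmodels 0.14.6 and matplotlib 3.10.9 were used. The number of arrays, not counting error, limits the precision.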

Additional observations from a re-analysis of the deposited data

How the results depend on the processing

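Under median centring, lowess centring and the mean of probe sets, all 10 member differences kept their sign and their side of 1.5-fold, and the largest move was 0.16, that of Wnt4 with the mean of its probe sets. These alternatives could change little. The mean of probe sets can alter only Wnt4, and the centrings moved no member by more than 0.04, so the kept signs say little about reliability. Wnt2, at 0.59, lay just past the 1.5-fold limit of 0.58, so its place in the count rests on that limit. With a 2-fold size, 0 members counted as lower and 0 as higher. Requiring the level filter on both arrays left 7 members, of which 2 were at least 1.5-fold lower and 1 higher. The share of all genes was not counted under that filter. The control value of Wnt2, the β-catenin siRNA value of Wnt3a and both values of Rspo1 fell under it. The canonical median was then -0.80, over Wnt2b and Wnt9a alone. The R-spondin median was 0.92 under either level filter, since Rspo3 alone was left. The class and probe set of Wnt4 changed the gap between canonical and non-canonical medians as given above (its other probe set was tried after seeing the data). No paired analysis was possible because each group has 1 array, and for the same reason no replicate could be left out. Wnt2, Wnt3a and Rspo1 had a value under the level filter on at least 1 array, so their differences rest on dim signal. Wnt11 on both arrays, and Wnt5b (5.22) and Wnt2b (5.26) after β-catenin siRNA, lay only a little above it. The filter is the median of all gene means and not a detection limit, so passing it does not make a signal bright.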

Other observations

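Of 19938 genes, 1168 (5.86%) had exactly the same deposited value on both arrays, among them the receptor gene Fzd3 and the keratin gene Krt10, and 0 of the 10 members did. A difference of exactly 0 in these data is therefore a feature of the summarised values of many genes, and how it arose was not tested.

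Fibroblast markers, used to check the cell type, were not all level with each other. Of 10 markers, 3 were at least 1.5-fold higher after β-catenin siRNA and none that much lower. Lum, which encodes the collagen-binding proteoglycan lumican, had a log2 value of 7.89 after β-catenin siRNA and 6.60 after control siRNA, a difference of 1.29. Dcn (decorin) differed by 0.84 and Pdgfra, the receptor that marks dermal fibroblasts, by 0.75. Over all 10 markers, 6 were higher and 4 lower, with a median of 0.09, and Col1a1 (-0.07) and Thy1 (-0.15), picked with their values known, differed little. Of 14 keratinocyte markers, 4 were at least 1.5-fold higher (Krt5 at 1.02, Krt17 at 0.79, Cdh1 at 0.75 and Krt14 at 0.62), and 1, Itga6, was that much lower (-0.78).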
